A study of Arabidopsis thaliana with 8 samples.

Results

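The class B, C and D floral genes are the MADS-box genes that give flower organs other than sepals their identity. The 6 loci AP3, PI, AG, SHP1, SHP2 and STK were taken by locus identifier out of 27444 nuclear protein-coding genes of Arabidopsis thaliana, and every accessible site that overlapped one of them or lay within 3000 bp was collected. Sites came from ATAC-seq, an assay whose transposase inserts sequencing adapters into accessible DNA, and are called transposase hypersensitive sites (THSs). The GFP+ group was sorted lateral organ founder cells, and the GFP- group was sorted cells of the same inflorescence meristems depleted of founder cells, with 3 libraries each. All plants had the genotype DRNL::erGFP ap1cal, so the controls carried the reporter and both mutations too, and were grown in long days for 4 to 5 weeks. GFP was driven by the promoter of DRNL, so GFP+ cells are those in which this promoter was active. Apices of about 700 to 900 plants were pooled, and 95000 to 300000 GFP+ protoplasts and about 300000 GFP- protoplasts were collected. A Control group of 2 sheared chromatin libraries was not analysed here. Apices of ap1 cal plants keep forming new meristems in place of flowers, so the organs that these genes specify are largely lacking. RNA was not measured, so the sites say where chromatin was open and not whether a gene was transcribed.

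In the ABC model, class B genes with class A genes make petals, class B with class C make stamens, and class C alone makes carpels, while class D genes set the identity of ovules. The proteins bind DNA as complexes with SEPALLATA partners at CArG boxes. Outside flowers the genes are held silent by Polycomb group proteins and by co-repressors, and LEAFY with co-factors switches them on in young floral meristems. AG is a textbook case of control from within a gene, since its large second intron carries the elements that LFY and WUS act through.

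The 6 genes ranged from wide open surroundings to none at all. Taking as window the gene with flanks of 3000 bp, the share of it under THSs averaged 63.6% at PI, 30.1% at AP3, 24.9% at SHP1, 18.1% at AG, 6.12% at SHP2 and 0% at STK over the 6 libraries, against a median of 13.6% over all protein-coding genes. This order was the same in 6 of 6 libraries. Neighbours in the order did not overlap in range. PI lay between 60.5% and 67.5%, AP3 between 27.7% and 31.3%, SHP1 between 21.4% and 27.2%, AG between 16.6% and 20.0% and SHP2 between 3.03% and 11.0%. Within the gene body the order was another one. AG came first with a mean of 24.0%, SHP1 had 12.6%, AP3 9.84% and PI 5.30%, and SHP2 and STK had 0%, against a median of 5.07% over all genes. The wide coverage at PI therefore lay outside the gene, and that at AG inside it.

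**Figure D1:**
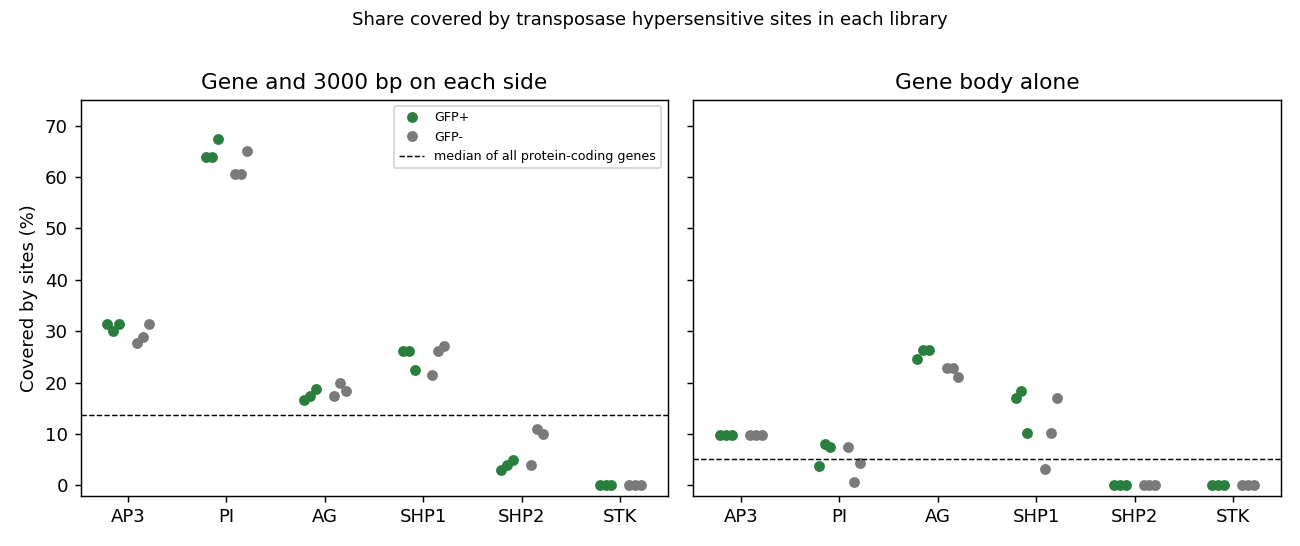
Percent of the window (left) and of the gene body alone (right) covered by THSs at each gene, with a point for each GFP+ and GFP- library and a dashed line at the median of all protein-coding genes. PI stands far above the others in the window, between 60.5% and 67.5%, and AG is highest in the gene body, while SHP2 and STK have 0% there.

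The lists held 96 site entries at these genes, summed over the 6 libraries, and none at STK. Of these, 32 touched the gene itself and 64 lay in the flanks alone, where 45 of the 64 overlapped another annotated gene. Joined over libraries, the entries formed 16 regions. A THS of every library was present in 10 of them, against 70.1% of all 26792 regions of the genome. No region was seen in all 3 libraries of 1 group and in none of the other, against 0.418% of regions (GFP+) and 2.1% (GFP-) over the genome. The gene table used gives no strand, so the flanks are named by coordinate, as lower and upper side, and promoter and downstream side cannot be told apart here.

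**Figure D2:**
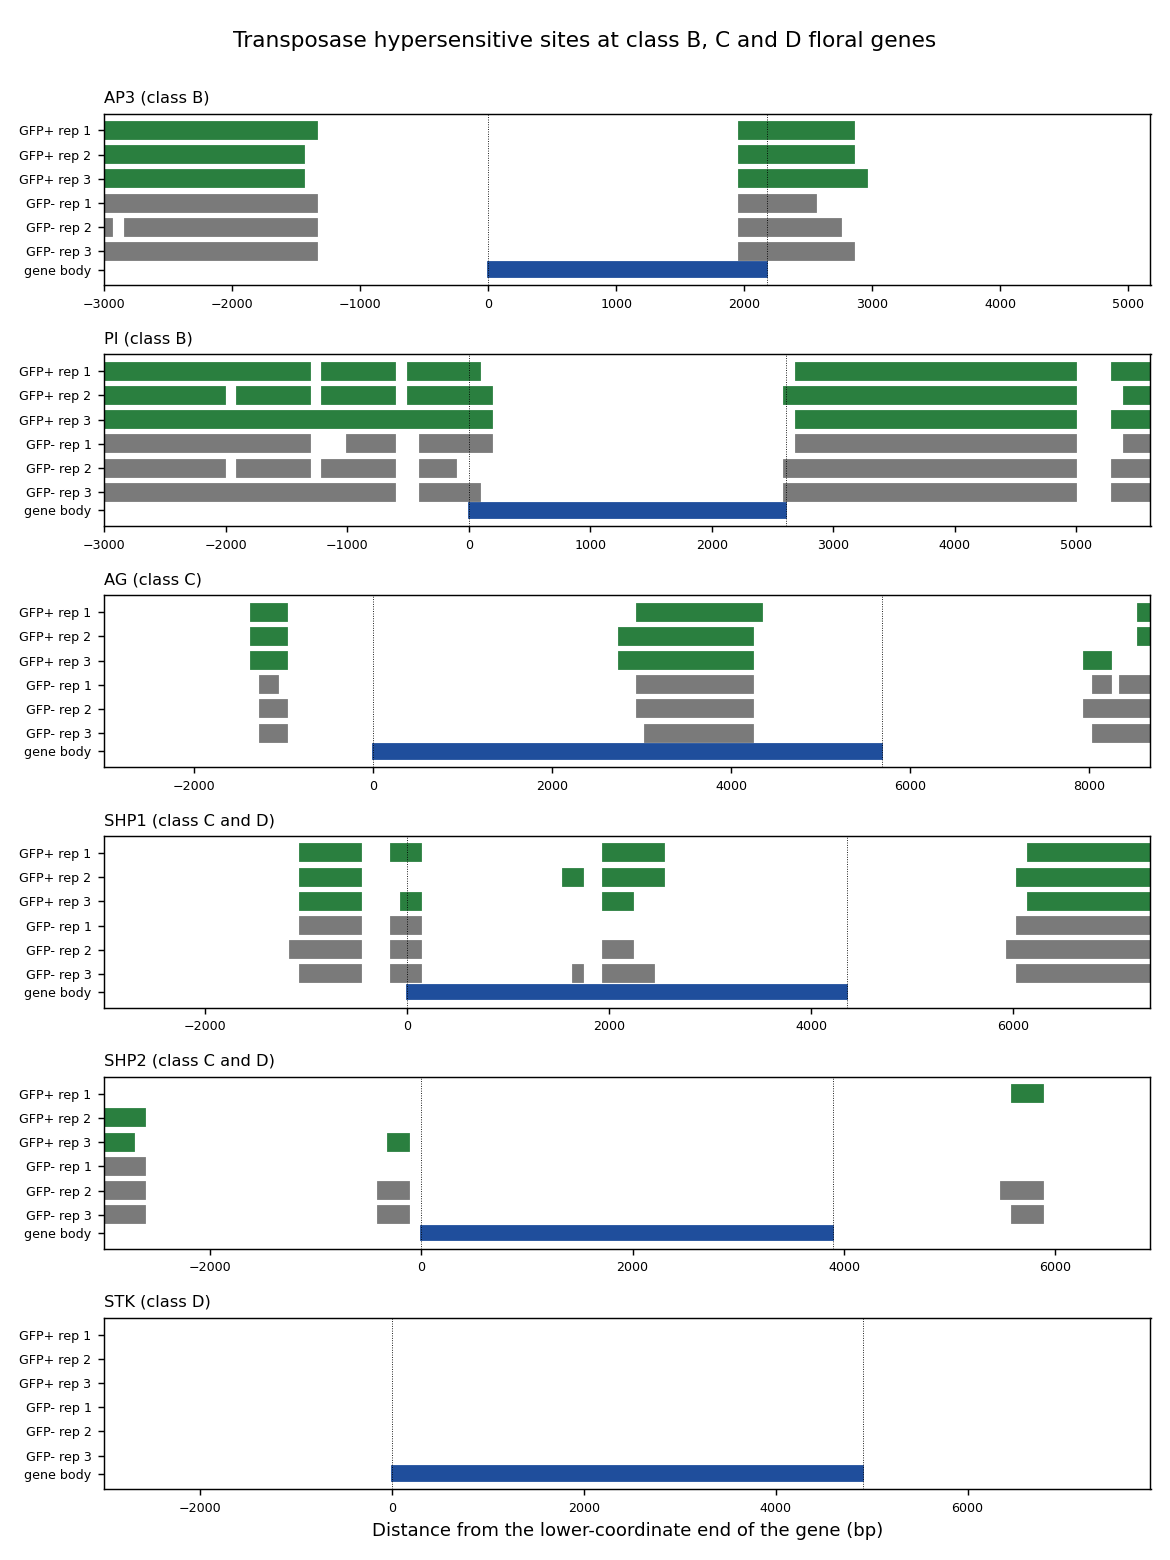
THSs of each library (GFP+ in green, GFP- in grey) at the 6 genes, plotted by distance in bp from the lower-coordinate end of the gene, whose body is the blue bar. AG has a wide site inside the gene in all 6 libraries, PI has sites up to both ends, AP3 a site across its upper end, and STK none.

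Both class B genes had open chromatin at an edge, and no site reached further than 214 bp into the gene. Their body coverage was still above that of 65.0% (AP3) and 50.9% (PI) of protein-coding genes. AP3 and PI encode the partners of the heterodimer that specifies petals and stamens. At AP3 (AT3G54340) a site on chromosome 3, beginning at 20121101, crossed the upper end of the gene in all 6 libraries and overlapped its last 214 bp. It was 900, 900 and 1000 bp wide in the GFP+ libraries, against 600, 800 and 900 bp in the GFP- libraries. The widest GFP- library reached the narrowest GFP+ libraries, so the groups overlapped. The difference of 16.7 percentage points of the joined region (SE 8.89) did not pass limma (adjusted p = 0.475, Benjamini-Hochberg over all regions). No other part of the AP3 body was covered.

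On its lower side AP3 had no THS within 1339 bp in any library. The next sites, 1340 to 1440 bp away, overlapped WRI1, a regulator of seed oil synthesis, and covered 1800, 1800 and 1800 bp in GFP+ and 1800, 1800 and 1900 bp in GFP- libraries. In GFP- replicate 2 this stretch was split into sites of 300 and 1500 bp. They ranked between the percentiles 91.5 and 94.7 of their lists by the authors' score, apart from the 300 bp site at 26.9. Of the AP3 flanks, 1096 bp lay outside other genes, and these were covered over 691 ± 9.24 bp in GFP+ and 553 ± 153 bp in GFP- libraries (mean ± SD over 3 libraries; two-sided exact permutation test, p = 0.3). With 3 libraries a group, the smallest two-sided p of such a test is 0.1.

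PI (AT5G20240) lay in one of the most open surroundings of the genome, above 98.5% of protein-coding genes in mean window coverage. A nearly continuous stretch on chromosome 5, from 6825701 to 6829100, ran from the neighbours AT5G20220 and BCB, a blue copper-binding protein gene, across the lower end of PI. It was covered over 3100, 3100 and 3400 bp in GFP+ and over 2900, 2700 and 3100 bp in GFP- libraries. GFP+ replicate 3 was covered throughout, and the highest GFP- library equalled the lower GFP+ libraries (8.82 percentage points, SE 4.17; limma adjusted p = 0.450). The site at the lower end of PI reached 97, 197 and 197 bp into the gene in GFP+ libraries, and 197 and 97 bp in GFP- replicates 1 and 3. In GFP- replicate 2 it stopped 104 bp short of the gene, at the percentile 3.65 of its list. A 100 bp window on the side of this site away from PI, from 6828401 to 6828500, was covered in all 3 GFP+ and no GFP- library. Such windows made up 0.817% of all covered windows of the genome, and 1 of the 60 covered at PI.

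At the other end, a region from 6831501 to 6833900 began at the upper edge of PI and ran to DIN10, a dark-inducible gene. It was covered over 2300, 2400 and 2300 bp in GFP+ and 2300, 2400 and 2400 bp in GFP- libraries, so that the groups had almost the same values. Its sites ranked between the percentiles 97.6 and 98.7 of their lists. The third region, of 800 bp over DIN10, was covered over 800, 700 and 800 bp in GFP+ and 700 bp in each GFP- library (limma adjusted p = 0.439). Without GFP+ replicate 2 each group had identical values, and the adjusted p was 0.00274. Counting the 2630 bp of flank outside other genes, PI had 2445, 2530 and 2545 bp covered in GFP+ and 2193, 2327 and 2430 bp in GFP- libraries. All GFP+ libraries lay above all GFP- libraries (exact permutation p = 0.1, two-sided), as at 4.3% of all genes tested.

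AG (AT4G18960), the class C gene that specifies stamens and carpels and ends the growth of the floral meristem, was open inside. A site wholly within the gene, on chromosome 4, spanned 10385801 to 10387200 in GFP+ replicate 1 and 10385601 to 10387100 in GFP+ replicates 2 and 3. In the GFP- libraries it began at 10385801, 10385801 and 10385901 and ended at 10387100. Its widths were 1400, 1500 and 1500 bp in GFP+ and 1300, 1300 and 1200 bp in GFP- libraries, so the groups did not overlap. The stretch shared by all 6 libraries, 10385901 to 10387100, was 1200 bp long and lay 3045 bp from the lower and 1439 bp from the upper end of the 5684 bp gene. Exons and introns were not separated by the gene table, so no intron is assigned to it. The sites ranked between the percentiles 91.9 and 94.0 of the GFP+ lists and 88.3 and 91.9 of the GFP- lists.

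Wide sites wholly inside a gene were rare, although the covered share of the AG body was above that of only 84.3% of protein-coding genes. A region lying wholly inside a gene and seen in all 6 libraries was found at 1044 protein-coding genes (3.80%), with a median width of 700 bp for the widest per gene, and the joined region of AG measured 1600 bp. Only 68 genes (0.248%) had one at least as wide, AG included. Among the 1065 genes as long as AG or longer, 11 had one that wide (1.03%). Of the genes in the 4 pathway lists described below, CAL had an internal region of 2000 bp, FUL 600 bp, SEP4 400 bp and ANT 300 bp. Among the further cell type markers, the meristem gene CLV1 had one of 700 bp and the epidermal gene PDF2 one of 200 bp.

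The covered length inside AG was higher in every GFP+ library than in any GFP- library, a difference that did not pass limma. In the gene body 1467 ± 57.7 bp were covered in GFP+ and 1267 ± 57.7 bp in GFP- libraries (mean ± SD over 3 libraries; two-sided exact permutation test, p = 0.1). All GFP+ libraries lay above all GFP- libraries in the body of 2.11% of all genes tested. By region the difference was 12.5 percentage points (SE 3.88; limma adjusted p = 0.292). On the lower side, a free-standing site of 400 bp in each GFP+ library, 10381501 to 10381900, was 200, 300 and 300 bp wide in GFP- libraries and lay 956 bp or more from the gene. Its ranks were the percentiles 35.1, 42.5 and 50.1 in the GFP+ lists and 5.44, 5.55 and 15.95 in the GFP- lists. Again the groups did not overlap, as in the lower flank of 3.97% of all genes in this direction, but the region did not pass (33.3 percentage points, SE 8.27; limma adjusted p = 0.172). Without GFP- replicate 1, the library with 200 bp, all libraries of a group had identical values and the adjusted p was 0.00106.

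On the upper side the direction was the opposite. A region from 10390801 to 10392000, which starts 2262 bp from AG and overlaps AT4G18970, AT4G06860 and AT4G18975, was covered over 600, 400 and 300 bp in GFP+ and 1000, 1200 and 1100 bp in GFP- libraries. The GFP+ sites ranked low, at the percentiles 9.16, 18.8 and 10.5 of their lists. The GFP- sites ranked at 13.1 and 47.8 in replicate 1, 64.6 in replicate 2 and 51.1 in replicate 3. The site began at 10391401 in GFP+ replicates 1 and 2 but ended at 10391100 in GFP+ replicate 3. No position was thus covered in all 3 GFP+ libraries. Every GFP+ library was below every GFP- library, as in 6.46% of all regions tested. This was the 1 region of the 16 that passed limma, with a difference of -55.6 percentage points of the region (SE 8.70; adjusted p = 0.0444), against 2.22% of all regions that were lower and 0.788% that were higher in GFP+. The call was lost without GFP+ replicate 2 (limma adjusted p = 0.118) or 3 (0.112), and without GFP- replicate 1 (0.0631), 2 (0.117) or 3 (0.116). It was also lost with no filter on low coverage (limma adjusted p = 0.0544) and with only the sites above the median score of each list (0.456). With replicate number as a block in the fit the region did not pass either (limma adjusted p = 0.253). The pattern, with the body higher and a flank lower and no overlap of groups in either, was found at 20 of 24697 genes (0.081%), a count made after AG had been seen to have it. Of the genes, 18303 had enough coverage in the body to be tested there, and no count of the reverse pattern is given.

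Because the parts moved apart, the AG window as a whole told little. It was covered over 16.6%, 17.5% and 18.8% in GFP+ and 17.5%, 20.0% and 18.3% in GFP- libraries, with overlapping groups and a difference of -0.967 percentage points (SE 1.06; limma adjusted p = 0.754). With flanks of 1000 bp, which leave out the upper region, the difference was 2.80 points, and with the gene body alone it was 3.52 points. Neither passed (limma adjusted p = 0.188 and 0.319).

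**Figure D3:**
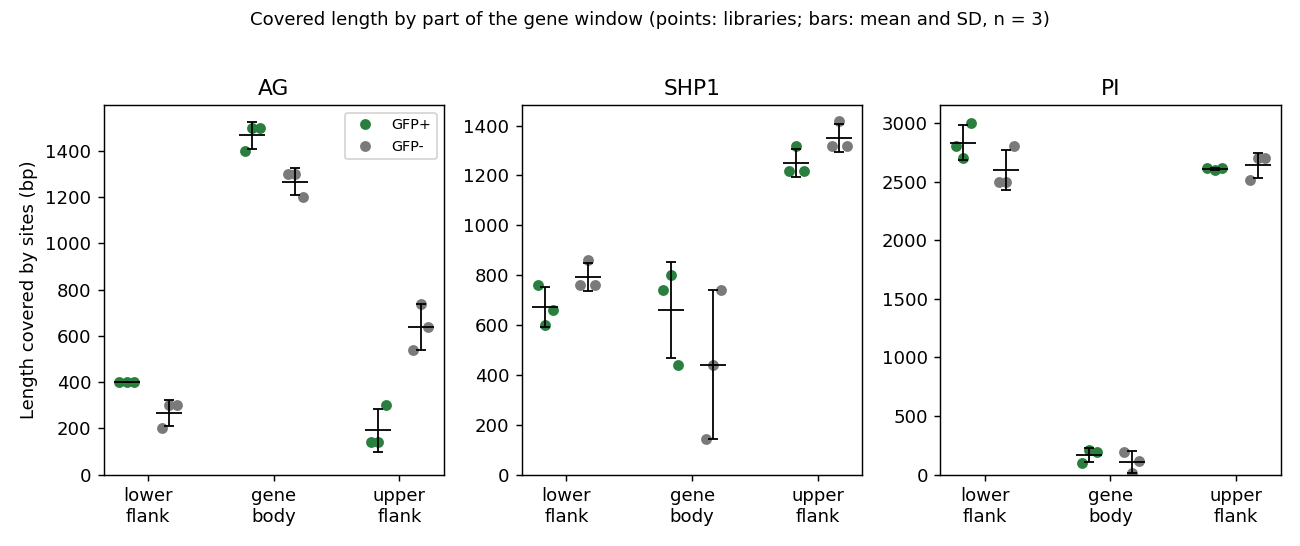
Length covered by THSs in bp in the lower flank, gene body and upper flank (3000 bp each side) of AG, SHP1 and PI, with a point per library and the mean and SD of each group (n = 3). At AG the GFP+ libraries lie above the GFP- libraries in the lower flank and the body and below them in the upper flank, while at SHP1 and PI the groups overlap or touch in each part.

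The 3 close relatives of AG did not share its wide internal site. SHP1 and SHP2 act redundantly in valve margins of the fruit, where pods split, and with STK in ovule identity. SHP1 (AT3G58780) had weaker and less regular sites in the body. A region on chromosome 3, 21740101 to 21740700, was covered over 600, 600 and 300 bp in GFP+ and 0, 300 and 500 bp in GFP- libraries. GFP- replicate 1 had no THS there, and the groups overlapped (38.9 percentage points, SE 26.3; limma adjusted p = 0.618). These sites ranked low, at the percentiles 14.6, 35.6 and 21.6 of the GFP+ lists and 1.59 and 26.1 in GFP- replicates 2 and 3. A smaller one, 21739701 to 21739900, was listed over 200 bp in GFP+ replicate 2 and over 100 bp in GFP- replicate 3 alone, on the non-coding gene AT3G09155 inside SHP1.

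At the lower end of SHP1 a 300 bp region, 21738001 to 21738300, was covered over 300, 0 and 200 bp in GFP+ and over 300 bp in each GFP- library. GFP+ replicate 2 lacked it, and the difference did not pass (-44.4 percentage points, SE 26.5; limma adjusted p = 0.542). A steadier site lay 460 bp outside that end, 21737101 to 21737700, with 600 bp in each GFP+ library and 600, 700 and 600 bp in GFP- libraries. On the upper side a wide region over GAUT15, a gene of the galacturonosyltransferase family, was covered over 1300, 1700 and 1300 bp in GFP+ and 1400, 1500 and 1400 bp in GFP- libraries. The whole window had the same mean of 24.9% in both groups (SD 2.23 points in GFP+ and 3.10 in GFP-, n = 3 each), with a difference of 0 points (SE 2.09). When only sites above the median score of each list were kept, the SHP1 window was lower in GFP+ by a difference of -7.08 points (limma adjusted p = 0.0181), and the site 460 bp outside by -90.5 points (limma adjusted p = 0.00242). By construction that setting drops this site where it ranks below the middle of its list. Its percentiles were 40.9, 42.4 and 41.1 in GFP+ and 50.5, 61.7 and 63.3 in GFP- lists, so it was dropped in GFP+ alone.

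SHP2 (AT2G42830) had no THS inside the gene in any library, as was the case for 30.2% of protein-coding genes. Around it lay 3 small sites, none of them in all 6 libraries. The one nearest, on chromosome 2 from 17819701 to 17820000, ended 114 bp below the gene and was covered over 0, 0 and 200 bp in GFP+ and 0, 300 and 300 bp in GFP- libraries. A second, 17825601 to 17826000, was covered over 300, 0 and 0 bp in GFP+ and 0, 400 and 300 bp in GFP- libraries. The third, 17817101 to 17817500, overlapped HVA22F and was covered over 0, 400 and 300 bp in GFP+ and 400 bp in each GFP- library. All ranked at or below the percentile 30.6 of their lists. The window was covered over 3.03%, 3.91% and 4.92% in GFP+ and 3.91%, 11.0% and 9.97% in GFP- libraries. GFP- replicate 1 lay among the GFP+ libraries, and the difference of -4.33 points (SE 2.02) did not pass limma (adjusted p = 0.449). Without that library it was -6.52 points (limma adjusted p = 0.0605).

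STK (AT4G09960), which directs ovule identity and the growth of the stalk that joins seed and fruit, had no THS in the gene or within 3000 bp in any library. The same held for 2424 other protein-coding genes. All 2425 made up 8.84% of the total. The nearest sites lay 4020 to 4220 bp beyond its upper end and 11975 bp beyond its lower end. Over the 6 libraries, the stretch without a THS that holds STK ran on chromosome 4 from 6224401 to 6245300, or 20900 bp. Of 26787 such stretches between regions, 381 (1.42%) were as long or longer, and the median was 1800 bp. SHP2 lay in a shorter one of 5600 bp, 17820001 to 17825600, a length that 15.8% of the stretches reached. The read depth of the libraries is unknown, so weak accessibility below the authors' threshold was not detectable.

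In the fit over all genes, no floral organ gene that could be tested passed the threshold for window coverage. Of the 6, 5 had coverage in at least 2 libraries and could be tested, and STK could not. Of these 5, 0 passed limma in either direction (Benjamini-Hochberg adjusted p over 24697 genes between 0.449 and 1, and 0 of 5 at an unadjusted p under 0.05), against 0.174% of all genes higher and 1.02% lower in GFP+. Their median difference was 0 points, and that of all genes tested was 0 points. PI had 64.0%, 64.0% and 67.5% in GFP+ and 60.5%, 60.5% and 65.2% in GFP- libraries (3.10 points, SE 1.75). AP3 had 31.3%, 30.1% and 31.3% in GFP+ and 27.7%, 28.9% and 31.3% in GFP- libraries (1.63 points, SE 1.33). In both, the highest GFP- library lay within the GFP+ range.

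Separation of the groups, with all libraries of GFP+ on one side of all GFP- libraries, was also counted for each part of the genes. For the whole window it was seen at 0 of the 5 in either direction, against 4.49% of all genes tested with GFP+ above and 8.67% with GFP+ below. In the gene body GFP+ was above at 1 gene, AG, and below at 0, against 2.11% above and 4.11% below over all genes. In the lower flank it was above at AG and below at 0, against 3.97% above and 6.37% below over all genes. In the upper flank it was above at 0 and below at 1, AG, against 3.86% above and 6.54% below over all genes. Outside other genes the flanks were higher in GFP+ at 2 genes, PI and AG, and lower at 0, against 4.3% higher and 6.96% lower over all genes. AG had 487, 487 and 400 bp covered there in GFP+ and 287, 387 and 387 bp in GFP- libraries. Of the 16 regions, 2 were above and 1 below, all of them at AG, against 3.84% and 6.46% of all regions. AG was thus the gene of the 6 whose parts separated the groups most often, in both directions.

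By windows of 100 bp, 159 were covered in some library at the 6 genes, and 103 of these (64.8%) in all 6 libraries. In the gene bodies it was 15 of 32 windows, 12 of them in AG and 3 in AP3. Windows seen in all 3 libraries of a single group numbered 2 for GFP+ (1 at PI, 1 in the lower flank of AG) and 2 for GFP- (both in the upper flank of AG). These are 1.26% each, against 0.817% and 1.74% of the covered windows of the genome.

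In the authors' deposited table, AP3, PI, AG and SHP1 were listed as genes with THSs in both populations, and SHP2 and STK as genes with THSs in GFP+ alone. Over all protein-coding genes, 4789 of the 24453 in the GFP+ column stood there alone, against 173 of the 19837 in the GFP- column. None of the 6 was among the 121 dTHS-up or the 392 dTHS-down genes of that table, which are short lists beside the 25995 genes of its GFP+ column. SHP2 was listed in GFP+ alone, though a GFP- THS lay within 3000 bp in all 3 libraries. In GFP- replicate 1 the only such site lay 2614 bp away, over HVA22F. STK was listed without a THS within 3000 bp in any library. Such genes were not few. Of the 4789 protein-coding genes listed in GFP+ alone, 708 (14.8%) had no THS of either group in their window. Of the 24453 protein-coding genes in the GFP+ column of the authors' deposited table, 910 (3.72%) had no GFP+ THS in their window, and of the 19837 in its GFP- column 0 had none. How the authors assigned sites to genes is not stated in the labels or headers, so their rule need not match a window of 3000 bp.

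The genes most like each member were found by the Euclidean distance of window coverage over the 6 libraries. AG was nearest to AOAT2 (AT1G70580) at 1.64 points, SHP1 to AT4G36700 at 2.32, AP3 to AT5G66820 at 2.07, SHP2 to ST4C (AT1G13430) at 2.22 and PI to AT5G65170 at 3.71. Such likeness was common at the lower levels, with 3303 genes within 10 points of AG and 3887 of SHP2, and 86 of PI. STK shared its 0% with the 2424 genes above.

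Other genes of the pathway were taken from lists of activators, repressors, targets and further floral MADS-box genes. Of 14 activators, 1 was higher and 0 lower in GFP+ by limma, against 0.174% and 1.02% of all 24697 genes tested, with a median difference of 2.33 points. It was WUS, the stem cell gene that activates AG with LFY, at 31.9% ± 2.62 in GFP+ and 16.8% ± 0.727 in GFP- libraries (SD, n = 3 each; limma adjusted p = 0.0272). Its window held 2 regions seen in the GFP+ libraries alone. With flanks of 1000 bp the difference at WUS was -2.54 points (limma adjusted p = 0.676), and with the gene body alone it was 1.53 points (limma adjusted p = 0.874). The call was also lost without GFP+ replicate 1 or 2 or any GFP- library (limma adjusted p between 0.0770 and 0.108). With replicate number as a block in the fit WUS did not pass either (limma adjusted p = 0.214). AP1, the class A gene mutated in these plants, had 36.6% ± 7.72 in GFP+ and 28.0% ± 0.574 in GFP- libraries (limma adjusted p = 0.449), with 1 region seen in GFP+ libraries alone. SYD, a chromatin remodelling ATPase that counters Polycomb repression, had the lowest difference of the list, with 1.45% ± 0.250 in GFP+ and 5.49% ± 1.09 in GFP- libraries (limma adjusted p = 0.0606), and 1 region seen in GFP- libraries alone. Over the genome, 0.772% of genes had such a GFP+ region and 3.92% such a GFP- region within 3000 bp.

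Of 18 repressors, 17 could be tested and 0 passed, with a median difference of 0.817 points. The range ran from AP2, the repressor of AG in outer whorls, with 45.4% ± 8.47 in GFP+ and 37.1% ± 3.91 in GFP- libraries, to BPC1, a GAGA-binding factor, with 32.5% ± 3.23 in GFP+ and 36.4% ± 0.741 in GFP- libraries. AP2 held 1 region seen in the GFP+ libraries alone. LHP1 (TFL2), the chromodomain protein of Polycomb silencing, had no THS in its window. Of 15 targets and partners in carpels and ovules, 0 passed, with a median of 0.897 points. They ran from JAG, a growth regulator of petals and stamens, with 18.4% ± 5.72 in GFP+ and 8.40% ± 4.02 in GFP- libraries, to BEL1, an ovule identity gene, with 42.7% ± 2.85 in GFP+ and 44.4% ± 0.986 in GFP- libraries. Of 7 further floral MADS-box genes, 0 passed, with a median of 0.650 points. CAL, redundant with AP1 and mutated here, had 41.8% ± 4.19 in GFP+ and 23.1% ± 4.19 in GFP- libraries (limma adjusted p = 0.0829), and FUL (AGL8), of fruit and meristem identity, had 44.1% ± 3.27 in GFP+ and 49.8% ± 3.11 in GFP- libraries and 1 region seen in the GFP- libraries alone. The SDs are over 3 libraries each.

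The labelled cell types were set against markers, as coverage and not RNA. The mean window coverage of 6 founder cell genes (DRNL, LFY, AHP6, PUCHI, ANT, FIL) was 47.8% to 53.5% in GFP+ and 35.4% to 38.2% in GFP- libraries. DRNL is no independent check, since its promoter drove the GFP used for sorting. Of the 6, 1 passed limma, FIL (adjusted p = 0.0425), against 0.174% of all genes higher in GFP+. FIL had 50.6% ± 6.02 in GFP+ and 24.4% ± 1.17 in GFP- libraries (SD, n = 3 each). With replicate number as a block in the fit 0 genes passed, so FIL did not pass either. For 5 meristem genes, of which WUS passed as higher in GFP+, the mean window coverage was 25.2% to 31.9% in GFP+ and 24.9% to 27.4% in GFP- libraries. The meristem genes did not go one way, with differences of 15.1 points at WUS, 3.16 at STM and 1.04 at CLV1. KNAT1 had -3.52 and CLV3 -1.96 points. For 4 mesophyll genes it was 20.5% to 25.0% in GFP+ and 25.0% to 28.0% in GFP-, for 3 vascular genes 14.2% to 16.3% in GFP+ and 15.7% to 17.3% in GFP-, and for 3 epidermal genes 26.0% to 29.0% in GFP+ and 22.9% to 24.4% in GFP- libraries. No mesophyll, vascular or epidermal gene passed. Of the vascular genes, SUC2 was lower in GFP+ (-3.89 points), while ATHB8 (0.589) and APL (0.224) were not. The part of such cells in the differences at AG was not tested. The lists held 24156 to 26216 THSs over 17.3 to 19.6 Mb in GFP+ libraries, and 26001 to 28757 THSs over 17.8 to 19.4 Mb in GFP- libraries.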

How the data were processed

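The submitters' processing notes name the TAIR10 genome and the tools SICER, bedtools 2.17.0, Picard 1.105, SAMtools 0.1.19 and BWA 0.7, without roles, site threshold or use of controls. The deposited lists hold a position and a score for each THS. The scale of the authors' score is unknown, so it served only to rank or filter sites within a list. All sites are whole windows of 100 bp. Positions are those of the sites, counted from 1. The deposited table of the series holds gene identifiers alone. Its columns were used as the authors' lists.

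Gene names and positions came from a RefSeq table of assembly TAIR10.1, which has no strand, exons or sequence. As a check of the builds, a GFP- THS lay within 1000 bp of 99.8% or more of the genes of the authors' GFP- list on every chromosome, and of at most 81.9% after a shift by 5000 bp.

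The percent covered by THSs was computed for each gene window (gene and 3000 bp on each side) and each joined region. It was fitted with limma 3.58.1 (R 4.3.3, eBayes with a trend, no block) over all genes or regions with coverage in at least 2 libraries, with Benjamini-Hochberg adjustment and a threshold of 0.05. Single values were tested by exact permutation over libraries, two-sided. Groups and replicate numbers came from the sample titles. The series calls the libraries biological replicates. The code was tested on simulated data, which for limma had normally distributed noise and not the 100 bp steps of the real lists. The members and lists were chosen with earlier results of these data known, and the counts of 100 bp windows and of internal regions were added after the sites had been seen. Genes named from the 4 pathway lists are those that passed, held a region of a single group, or had the highest or lowest difference. SEP4, ANT, LHP1 and the marker PDF2 were named after their values had been seen. Alternatives were other flanks, no filter, fewer sites by score, wider joining, no trend, a replicate block and leaving out each library.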

Additional observations from a re-analysis of the deposited data

How the results depend on the processing

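Over all genes, 43 were higher and 251 lower in GFP+. The higher genes numbered 76 with flanks of 1000 bp, 98 with the gene body alone, 174 with the same number of top-scoring sites in every library and 131 with sites above the median score of each list. The lower genes numbered 390 with sites above the median score. Leaving out 1 library gave 16 to 35 higher and 34 to 281 lower genes. Over all regions, 193 were higher and 543 lower. The higher regions numbered 118 with sites joined across gaps of up to 200 bp and 371 with the same number of top-scoring sites. Leaving out 1 library gave 230 to 428 higher and 400 to 1148 lower regions. Regions of a single group numbered 112 (GFP+) and 562 (GFP-). The GFP+ count was 305 with the same number of top-scoring sites, 63 with wider joining and 173 when a share of 0.5 of the region had to be covered, and the GFP- count was 346 with sites above the median score. Leaving out 1 library gave 135 to 354 GFP+ and 609 to 1052 GFP- regions.

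Whether equal replicate numbers mark a shared sort is not stated, and the correlations are too weak to decide it. Deviations from the group means over genes correlated with r of 0.190, 0.0975 and 0.0404 for numbers 1, 2 and 3. Between unlike numbers r lay between -0.188 and 0.104, and GFP+ replicate 2 correlated best with GFP- replicate 3. With the replicate block, 0 genes were higher and 0 lower, and 65 regions were higher and 148 lower. The region beyond AG had an adjusted p of 0.253 and WUS one of 0.214 (limma).

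At the floral organ genes, the window difference of AG turned positive with flanks of 1000 bp (2.80 points), the gene body alone (3.52 points) and the same number of top-scoring sites (1.32 points). That of WUS turned to -2.54 points with flanks of 1000 bp. The region over WRI1 beside AP3, at -1.75 points, changed to 3.03 points with wider joining and 3.51 with sites above the median score, and the upper flank of PI, at -28.3 bp, lay between -90 and 2.50 bp when 1 library was left out, positive without GFP- replicate 2 or 3. Of 12 alternatives for the region beyond AG, 4 kept the call, with adjusted p from 0.0362 to 0.456 (limma) and the direction the same in all 12. The lower site of AG had a difference of 100 points (limma adjusted p = 0.00016) with the same number of top-scoring sites, a setting that by construction drops the lowest ranks of the longer lists, where its GFP- sites stood. Depth is unknown, and sites are lists past a threshold in steps of 100 bp, so that a difference of 100 bp is a single window and identical values within a group can make an adjusted p too small.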
